A study of Mus musculus with 24 samples.

Results

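Cd40, Traf1, Nfkbie, Bcl2a1b and Ccl22 are 5 genes of the CD40 and NF-kB response, taken from the 18470 gene rows of the count table by their symbols. They were chosen by function, as CD40 itself and genes that NF-kB induces, and selected on values measured in these libraries. For Bcl2a1b these were its levels in WT lung CCR6+CD69+ and WT circulating cells, so differences between WT populations are described here without a test. The genotype differences of Bcl2a1b in lung CCR6+CD69+ and circulating cells, and their interaction, reuse those WT levels and are given for it without a p-value. For the other 4 the values used are not recorded and may include the genotype differences, so the genotype counts and p-values below are no independent evidence. All 5 passed the filter on low counts, as did 6779 rows in all.

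Mice were sensitised with intranasal house dust mite (HDM) extract, and the allergen was repeated 6 weeks later. Memory B cells (csMBC in the labels) were then sorted for bulk RNA sequencing. SCAP cKO mice were SCAP fl/fl hCD20-TamCre, with Scap deleted before the second challenge, and WT mice were SCAP +/+ hCD20-TamCre, so both carried the Cre, a tamoxifen-activated recombinase driven by human CD20 sequence in B cells. SCAP escorts the SREBP transcription factors of sterol and fatty acid synthesis out of the endoplasmic reticulum. Each genotype gave 3 populations: lung CCR6+CD69+ cells, lung CCR6-CD69- cells and circulating cells, and each of these 6 groups had 4 libraries, with 2 in each of 2 labelled batches (replicates 1 and 2 in batch 1, replicates 3 and 4 in batch 2). Even the circulating libraries have lung as their labelled source. Whether replicates came from separate animals is not stated, so the p-values reflect the spread among these samples alone.

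CD40 is a receptor of the TNF receptor family on B cells, engaged by CD40 ligand on helper T cells. It recruits TRAF adaptor proteins, which lead to release of NF-kB dimers from their IkB inhibitors. The dimers enter the nucleus and induce genes for survival, for signals to T cells, and for the inhibitors that end the response. Memory B cells meet this signal when antigen returns and T cells help them.

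Total counts ran from 129025 to 8566243 per library, and 3 counts corresponded to 0.350 to 23.3 CPM (counts per 1000000 counts of a library). The smallest library was SCAP cKO lung CCR6-CD69- replicate 4, with 2134 genes detected. WT circulating replicate 2 was the other library under 500000 counts, at 356782. Such limits cover counting error only. Scap did not separate the genotypes. It measured 43.5 to 138 CPM in SCAP cKO and 66.2 to 134 CPM in WT lung CCR6+CD69+ cells, 0 to 139 CPM in SCAP cKO and 115 to 170.2 CPM in WT lung CCR6-CD69- cells, and 121 to 446 CPM in SCAP cKO and 0 to 203 CPM in WT circulating cells. The edgeR adjusted p-values for Scap were 1, 0.998 and 0.673. Counts cover the whole gene, so they do not check a deleted part of it. B cell markers, 4 of 8 with a row, summed to 1769 CPM or more in every library. Circulating libraries of both genotypes also carried natural killer (NK) cell markers (6 of 8 with a row): 1371 to 2309 CPM in SCAP cKO and 1020.0 to 2733 CPM in WT circulating cells, against at most 26.0 CPM in any lung library. In 1 SCAP cKO and 1 WT lung CCR6-CD69- library, the macrophage gene Chil3 took more counts than any other gene. In bulk samples, fewer cells of a type and less RNA per cell cannot be told apart.

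The promoters shown are those of Nfkbie and Bcl2a1b, the 2 genes whose circulating SCAP cKO and WT libraries did not overlap. Of all 6779 genes, 48 (0.708%) were higher in SCAP cKO without overlap, and Bcl2a1b was selected on its WT circulating level. The promoters come from RefSeq on GRCm38.p6 and run from 250 bases before to 50 bases after the start of the gene. Of the 5 genes, 4 had an entry in that table. Nfkbie lies at chr17:45555450-45555749 on the + strand, and capitals mark a match to the kappaB consensus, the motif NF-kB dimers are known to bind. Bcl2a1b lies at chr9:89199023-89199322 on the + strand, and its window holds no match.
Nfkbie promoter: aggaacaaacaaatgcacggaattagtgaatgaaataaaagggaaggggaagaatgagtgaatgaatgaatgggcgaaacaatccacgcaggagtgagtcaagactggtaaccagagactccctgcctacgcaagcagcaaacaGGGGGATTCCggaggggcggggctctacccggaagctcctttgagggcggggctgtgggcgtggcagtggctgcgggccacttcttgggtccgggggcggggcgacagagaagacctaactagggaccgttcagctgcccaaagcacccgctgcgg
Bcl2a1b promoter: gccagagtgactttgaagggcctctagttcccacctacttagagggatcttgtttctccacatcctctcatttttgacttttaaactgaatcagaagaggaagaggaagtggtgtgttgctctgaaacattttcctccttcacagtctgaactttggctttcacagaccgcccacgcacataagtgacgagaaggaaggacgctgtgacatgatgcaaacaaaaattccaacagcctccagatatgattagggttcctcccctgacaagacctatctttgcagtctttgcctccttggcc
The match in the Nfkbie window, GGGGGATTCC, covers bases 145 to 154 and ends 97 bases before the start site. The consensus was searched on both strands, and 1 of the 4 promoters held it, against 1480 of all 32851 promoters in the table (4.51%) and 21 of 76 promoters of other pathway genes (27.6%). A match is a description of these letters and no measurement of binding.

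Mouse Bcl2a1b has near-identical copies on the same chromosome, Bcl2a1a and Bcl2a1d. The first 90 of the 519 coding bases of each are shown, the stretch of that length where the copies differ most. Capitals mark the bases that differ among them.
Bcl2a1b: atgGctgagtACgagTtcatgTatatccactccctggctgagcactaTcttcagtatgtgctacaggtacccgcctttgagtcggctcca
Bcl2a1a: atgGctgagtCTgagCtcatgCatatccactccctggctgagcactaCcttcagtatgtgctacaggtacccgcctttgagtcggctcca
Bcl2a1d: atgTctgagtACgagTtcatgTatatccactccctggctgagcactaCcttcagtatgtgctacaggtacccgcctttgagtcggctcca
Within these 90 bases 6 positions differ, and over the whole coding sequence 12 do. Relative to Bcl2a1b, Bcl2a1a differs at 11 coding bases and Bcl2a1d at 6. The Bcl2a1b transcript is 98.2% identical to that of Bcl2a1a and 99.1% identical to that of Bcl2a1d. Of its 743 windows of 75 bases, 323 (43.5%) occur unchanged in a copy. Its counts are therefore uncertain, since the counting could have split or moved reads between copies; Bcl2a1d is not analysed here.

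In circulating cells all 5 genes were on average higher in SCAP cKO than in WT libraries, by 1.55 (Cd40) to 5.24 (Ccl22) on the log2 scale. The Cd40 difference became -0.25 without SCAP cKO circulating replicate 2 and -0.21 in batch 2 alone. Bcl2a1b was selected on its WT circulating level, so its difference is a description. In the 2 lung populations the differences lay between -0.29 and 1.36. None of the 4 genes other than Bcl2a1b passed a test of the lung CCR6+CD69+ difference against the circulating one, the only such pair of populations tested. None of those 4, and none of all 6779 genes, passed an adjusted p of 0.05 for genotype with edgeR in any population. WT circulating cells had the lowest mean of the 6 groups for every one of the 5 genes, which for Bcl2a1b is the level it was selected on. For Cd40, SCAP cKO circulating cells stood above them only through replicate 2, at 661 CPM. The level of each gene is given below in every library, in replicate order 1 to 4.

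**Figure D1:**
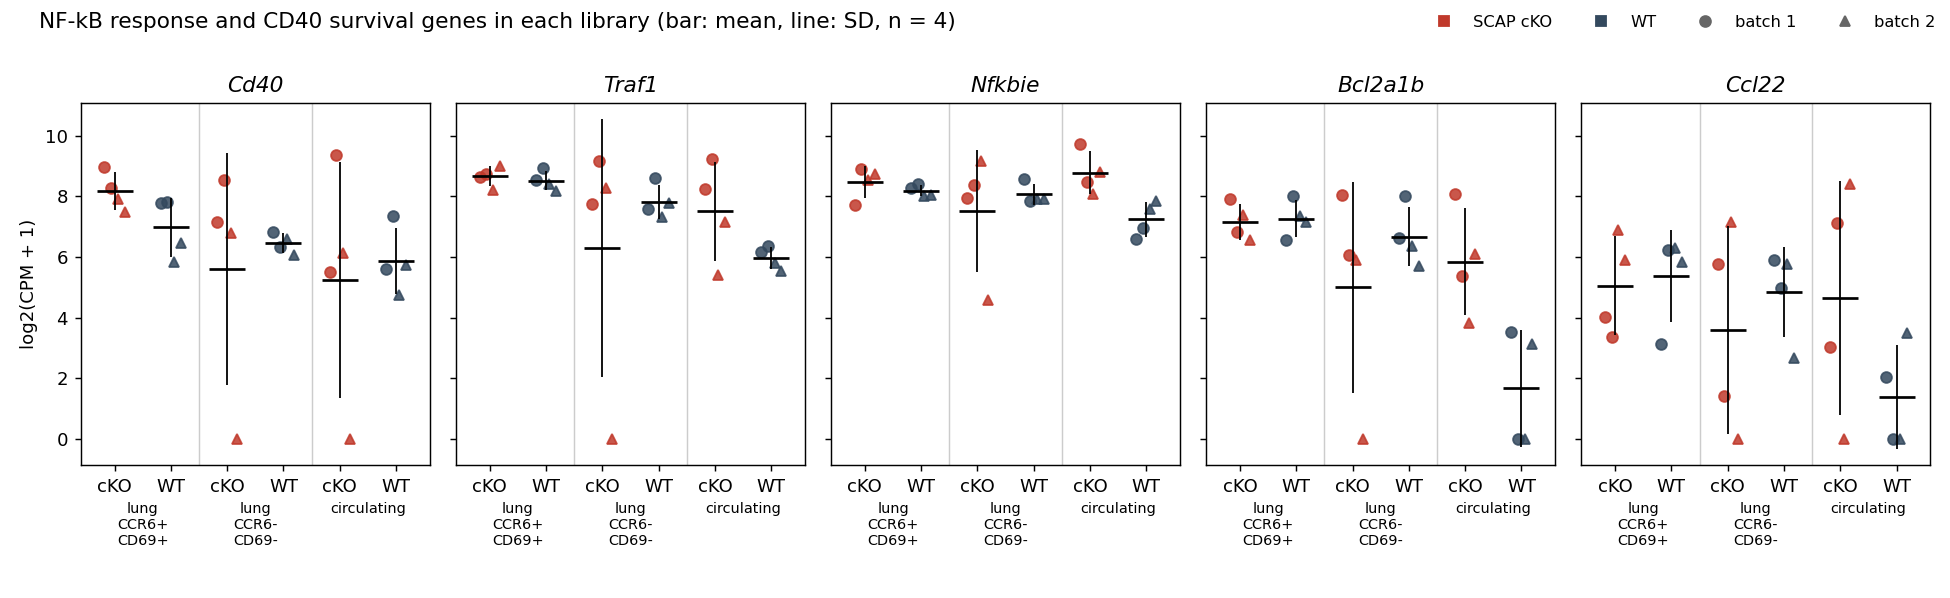
Levels of the 5 genes as log2(CPM + 1) in each of the 24 libraries, with SCAP cKO left of WT in each population, circles for batch 1 and triangles for batch 2; bars are group means and lines the SD (n = 4). WT circulating libraries reach 10.6 CPM at most for Bcl2a1b and 10.4 CPM for Ccl22, and the SCAP cKO circulating libraries spread widely, with Cd40 at 661 CPM in replicate 2 and at 0 in replicate 4.

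Cd40 encodes the receptor at the head of the response. It stood at 505, 307, 242 and 179 CPM in SCAP cKO lung CCR6+CD69+ libraries, against 219, 224, 56.4 and 87.5 CPM in WT ones. The group means were 308 ± 141 CPM and 147 ± 87.2 CPM (SD, n = 4 each), and 2 WT libraries reached above the lowest SCAP cKO library. In lung CCR6-CD69- cells it was 141, 369, 109 and 0 CPM in SCAP cKO and 111, 79.4, 96.4 and 65.4 CPM in WT libraries, where the library at 0 is the smallest of the series. In circulating cells it was 44.9, 661, 69.3 and 0 CPM in SCAP cKO, against 47.7, 163, 25.9 and 52.8 CPM in WT libraries. A single SCAP cKO circulating library was far above the rest, and another, with 2092658 counts, had none. The circulating difference of 1.55 ± 0.94 (log2, SE) became -0.25 without SCAP cKO circulating replicate 2. In lung CCR6+CD69+ cells the difference was 1.36 ± 0.90 (edgeR adjusted p = 1) and in lung CCR6-CD69- cells 0.45 ± 0.91 (edgeR adjusted p = 0.998).

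Traf1 encodes an adaptor that joins TRAF2 at CD40 and related receptors, and is itself induced by NF-kB. Lung CCR6+CD69+ cells had 400.0, 429, 297 and 515 CPM of Traf1 in SCAP cKO and 373, 486, 338 and 290.3 CPM in WT libraries. These groups overlapped, with means of 410.4 ± 89.9 CPM in SCAP cKO and 372 ± 83.1 CPM in WT cells (SD, n = 4 each). In CCR6-CD69- lung cells Traf1 was 215, 575, 308 and 0 CPM in SCAP cKO and 189.7, 385, 157 and 219 CPM in WT libraries. In circulating cells it was 301, 596, 41.3 and 142 CPM in SCAP cKO, against 70.3, 81.3, 55.1 and 45.4 CPM in WT libraries. Of the circulating SCAP cKO libraries, 3 lay above every WT library and replicate 3 lay below all 4. The circulating means were 270.1 ± 242 CPM in SCAP cKO and 63.0 ± 15.9 CPM in WT cells (SD, n = 4 each).

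Nfkbie encodes IkB epsilon, an inhibitor that holds NF-kB dimers in the cytoplasm and is resynthesised after activation; its promoter above carries the kappaB match. Its levels in lung CCR6+CD69+ cells were 211, 477, 369 and 423 CPM in SCAP cKO and 306, 336, 259.8 and 262 CPM in WT libraries, and the groups overlapped. Lung CCR6-CD69- libraries had 244, 332, 577 and 23.3 CPM of Nfkbie in SCAP cKO and 381, 231, 242 and 239 CPM in WT libraries, with the lowest value again in the smallest library. In circulating cells it was 854, 352, 271 and 449 CPM in SCAP cKO, against 95.5, 123, 191 and 228 CPM in WT libraries. All 4 SCAP cKO circulating libraries exceeded all 4 WT ones. The circulating means were 481 ± 259 CPM in SCAP cKO and 159.6 ± 60.9 CPM in WT cells (SD, n = 4 each).

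Bcl2a1b encodes an A1 protein, a BCL2 relative that NF-kB induces and that keeps B cells alive. In lung CCR6+CD69+ cells it was 239, 113, 165 and 94.1 CPM in SCAP cKO and 94.1, 259, 161 and 140.3 CPM in WT libraries, with no order by genotype. Bcl2a1b levels in lung CCR6-CD69- cells were 266, 65.7, 58.7 and 0 CPM in SCAP cKO and 98.6, 256, 80.5 and 50.7 CPM in WT libraries. In circulating cells it was 272, 40.7, 13.3 and 66.9 CPM in SCAP cKO, against 10.6, 0, 0 and 7.79 CPM in WT libraries. Every circulating SCAP cKO library exceeded every WT one, and 2 WT libraries held no count. In those 2, replicates 2 and 3, 3 counts would have been 8.41 and 1.22 CPM. The copy Bcl2a1a was low in the same cells, at 3.84, 4.18, 0 and 5.73 CPM in SCAP cKO circulating libraries, against 1.33, 2.80, 0 and 0 CPM in WT ones. For Bcl2a1a the genotype difference was 2.89 ± 1.94 in circulating cells (edgeR adjusted p = 0.630), -2.70 ± 1.86 in lung CCR6-CD69- cells and 1.14 ± 1.73 in lung CCR6+CD69+ cells.

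Ccl22 encodes a chemokine that draws CCR4-bearing T cells, made by activated B cells and by dendritic cells. Ccl22 in lung CCR6+CD69+ cells was 15.4, 9.33, 119 and 59.0 CPM in SCAP cKO and 7.82, 75.02, 77.1 and 56.0 CPM in WT libraries. The lung CCR6-CD69- libraries had 54.1, 1.68, 143 and 0 CPM of Ccl22 in SCAP cKO and 58.9, 30.9, 53.9 and 5.45 CPM in WT libraries. Both lung populations thus varied widely within a genotype, and the genotypes overlapped. In circulating cells it was 7.12, 139, 0 and 338 CPM in SCAP cKO, against 3.09, 0, 0 and 10.4 CPM in WT libraries. The circulating SCAP cKO mean of 121 ± 158 CPM, against 3.37 ± 4.90 CPM in WT cells (SD, n = 4 each), rests on replicates 2 and 4, and the groups overlapped because replicate 3 was at 0.

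Across the 6 groups, Cd40 and Traf1 had their highest mean in SCAP cKO lung CCR6+CD69+ cells, Nfkbie and Ccl22 in SCAP cKO circulating cells, and Bcl2a1b in WT lung CCR6+CD69+ cells. In that order of means, neighbouring groups differed by less than the larger of their SDs, with 3 exceptions. The step between WT lung CCR6-CD69- cells in the fifth place and WT circulating cells in the last exceeded it for Traf1 (238 ± 101 and 63.0 ± 15.9 CPM), Nfkbie (273 ± 72.1 and 159.6 ± 60.9 CPM) and Ccl22 (37.3 ± 24.5 and 3.37 ± 4.90 CPM).

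Genotype was tested in each population with edgeR's quasi-likelihood F-test, Benjamini-Hochberg adjustment over 6779 genes and log2 fold changes of SCAP cKO over WT. In circulating cells the fold change was 2.29 ± 0.72 (SE) for Traf1 (edgeR adjusted p = 0.417) and 1.96 ± 0.64 for Nfkbie (edgeR adjusted p = 0.419). For Ccl22 it was 5.24 ± 1.65 (edgeR adjusted p = 0.417) and for Cd40 1.55 ± 0.94 (edgeR adjusted p = 0.593). For Bcl2a1b it was 4.31 ± 1.14, a description, since the gene was selected on its WT circulating level; it ran from 3.24 without SCAP cKO circulating replicate 1 to 5.13 without WT circulating replicate 4. The fitted values of Bcl2a1b and Ccl22 rest on few WT circulating counts, 42 and 31 in total, with 2 WT libraries at 0 for each. So 0 of the 4 genes other than Bcl2a1b passed, against 0 of 6779 genes (0%). Of the 4 genes other than Bcl2a1b, 3, all but Cd40, had an unadjusted p under 0.05, against 693 of 6779 genes (10.2%). DESeq2, the alternative test, called the same 3 of these 4 genes, against 226 of 6647 genes with an adjusted p (3.4%). Its adjusted p-values were 0.0299 for Traf1, 0.0299 for Nfkbie and 0.0118 for Ccl22, against 0.500 for Cd40. Groups that did not overlap, with SCAP cKO higher, were found for Nfkbie and for Bcl2a1b, chosen with its WT levels known, beside 48 of 6779 genes (0.708%). The 5 genes, Bcl2a1b included, had a median fold change of 2.29, and all genes tested a median of 0.16. Setting these medians side by side is no test, since the 5 genes were chosen with earlier results of these data known.

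Within batches the circulating differences were larger in batch 1 for all 5 genes. In batch 1 alone they were 2.12 for Cd40, 2.83 for Traf1, 2.80 for Nfkbie, 4.73 for Bcl2a1b and 5.20 for Ccl22. In batch 2 alone they were -0.21 for Cd40, 0.84 for Traf1, 0.75 for Nfkbie, 3.33 for Bcl2a1b and 4.99 for Ccl22. Cd40 thus changed sign between batches, and Traf1 and Nfkbie were closer to zero in batch 2 than in the fit of both.

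**Figure D2:**
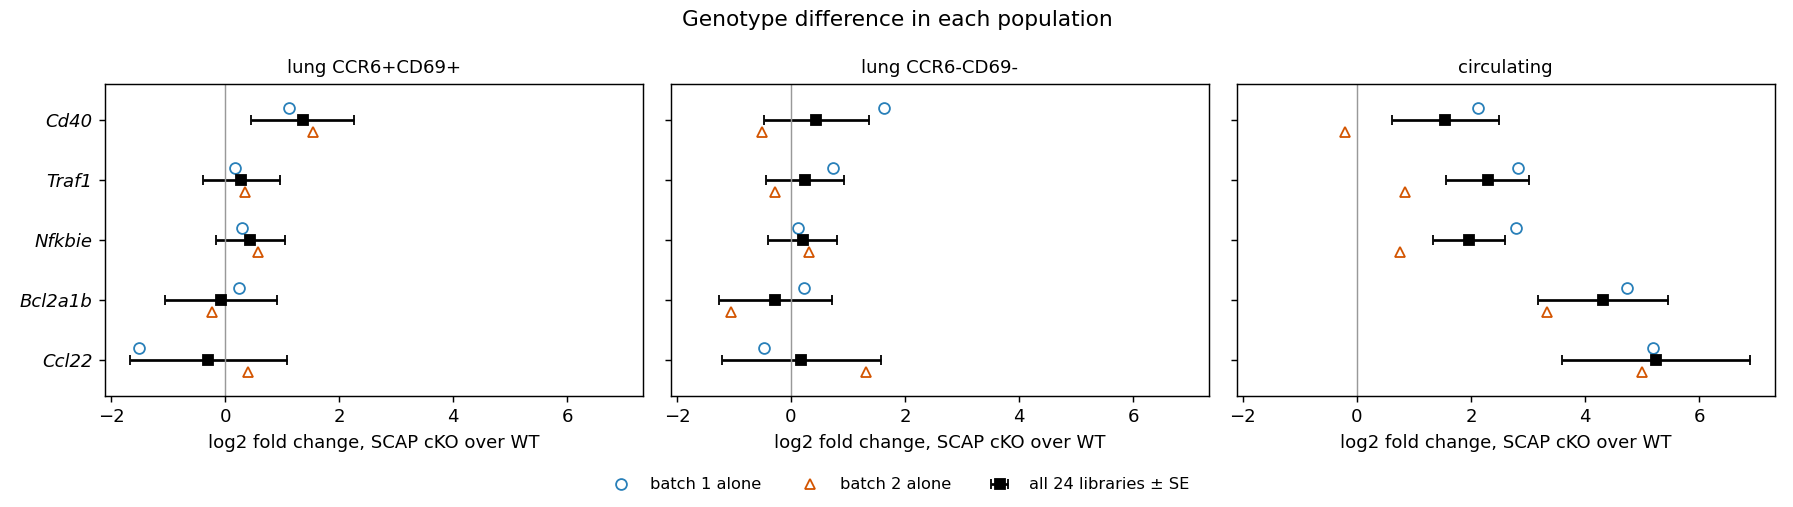
Log2 fold change of SCAP cKO over WT for the 5 genes in each population, with squares and bars for the fit of all 24 libraries ± SE and open circles and triangles for batch 1 and batch 2 alone. The circulating values for all 24 libraries run from 1.55 (Cd40) to 5.24 (Ccl22), and the lung values from -0.29 (Ccl22) to 1.36 (Cd40).

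Marker genes of other cells were also measured in the circulating libraries, and the ranges of their sums overlapped between genotypes for every list. Dendritic cell markers, 6 of 9 with a row, summed to 229 to 678 CPM in SCAP cKO, against 121 to 346 CPM in WT libraries. Within that list the genes did not run one way. Flt3 was 157 to 198 CPM in SCAP cKO and 28.0 to 125 CPM in WT libraries, and Clec10a was 22.5 to 344 CPM in SCAP cKO and 17.8 to 107 CPM in WT libraries. Cd209a was 0, 0, 167 and 0 CPM in SCAP cKO, against 38.0, 36.4, 100.1 and 91.8 CPM in WT libraries, and Fscn1 was 0 to 46.4 CPM in SCAP cKO and 0 to 81.4 CPM in WT libraries. Zbtb46 reached 47.9 CPM in SCAP cKO and 0.884 CPM in WT libraries, while Xcr1 was at 0 in all WT libraries and reached 1.04 CPM in 1 SCAP cKO library. SCAP cKO circulating replicate 4, which held the most Ccl22, had the lowest dendritic cell sum of its group, 229 CPM, and replicate 3, with the highest, 678 CPM, had none. Macrophage and monocyte markers, 9 of 10 with a row, summed to 736 to 4796 CPM in SCAP cKO and 1777 to 3546 CPM in WT libraries, with Marco at 0 in both. The highest of these sums was in SCAP cKO circulating replicate 4. T cell markers, 5 of 8 with a row, summed to 156 to 1451 CPM in SCAP cKO and 387 to 434 CPM in WT libraries, B cell markers to 1769 to 3398 CPM in SCAP cKO and 1886 to 3817 CPM in WT libraries. Plasma cell markers, 2 of 5 with a row, summed to 317 to 1044 CPM in SCAP cKO and 824 to 2641 CPM in WT libraries. Plasmacytoid dendritic cell markers, 3 of 5, summed to 771 to 1948 CPM in SCAP cKO and 776 to 1531 CPM in WT libraries, and granulocyte markers, all 6 with a row, to 74.1 to 364 CPM in SCAP cKO and 0 to 275 CPM in WT libraries. The part of these cells in the circulating differences was not tested.

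In lung CCR6+CD69+ cells the genotype difference of the 5 genes lay between -0.29 and 1.36. With Bcl2a1b set aside, it passed the threshold for none of them, against 0 of 6779 genes (0%). It was 0.28 ± 0.68 for Traf1, 0.44 ± 0.60 for Nfkbie and -0.29 ± 1.38 for Ccl22, each with an edgeR adjusted p of 1, and -0.07 ± 0.97 for Bcl2a1b as a description. In this population 155 of all genes had an unadjusted p under 0.05 and DESeq2 called 5. In lung CCR6-CD69- cells the differences were 0.25 ± 0.68 for Traf1, 0.20 ± 0.60 for Nfkbie, -0.28 ± 0.99 for Bcl2a1b and 0.18 ± 1.39 for Ccl22, each with an edgeR adjusted p of 0.998. Here 0 of 5 passed, against 0 of 6779 genes (0%), while 496 genes had an unadjusted p under 0.05 and DESeq2 called 72. Within batches (batch 1 first), the lung CCR6+CD69+ differences were 1.12 and 1.53 for Cd40, 0.17 and 0.35 for Traf1, 0.29 and 0.58 for Nfkbie, 0.24 and -0.23 for Bcl2a1b, and -1.51 and 0.40 for Ccl22. In lung CCR6-CD69- cells they were 1.63 and -0.51 for Cd40, 0.74 and -0.29 for Traf1, 0.12 and 0.32 for Nfkbie, 0.23 and -1.05 for Bcl2a1b, and -0.47 and 1.31 for Ccl22. With errors of 0.60 to 1.39, lung differences of this size could not be detected, and a p that missed the threshold does not show that the genotypes were alike.

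Whether the genotype difference itself differed between lung CCR6+CD69+ and circulating cells was tested as an interaction. It was -5.54 ± 2.10 for Ccl22 (edgeR adjusted p = 0.808) and -2.01 ± 0.98 for Traf1 (edgeR adjusted p = 0.885). Of the 4 genes other than Bcl2a1b, these 2 had an unadjusted p under 0.05. The value was -1.52 ± 0.87 for Nfkbie (edgeR adjusted p = 0.929) and -0.18 ± 1.29 for Cd40 (edgeR adjusted p = 1). For Bcl2a1b it was -4.38 ± 1.46, given as a description, since the WT levels it was selected on enter this value. None of the 4 genes other than Bcl2a1b passed, against 0 of 6779 genes (0%), where 367 genes had an unadjusted p under 0.05 and DESeq2 called 30.

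Lung CCR6+CD69+ and circulating cells could also be set against each other within SCAP cKO. Here Cd40 differed by 0.86 ± 0.92 (edgeR adjusted p = 0.721), Traf1 by 0.57 ± 0.70 (edgeR adjusted p = 0.761) and Bcl2a1b by 0.64 ± 1.00 (edgeR adjusted p = 0.823), lung over circulating. Leaving out 1 library moved the Cd40 value between 0.35, without SCAP cKO circulating replicate 4, and 2.65, without replicate 2. Nfkbie differed by -0.69 ± 0.61 (edgeR adjusted p = 0.648) and Ccl22 by -1.65 ± 1.42 (edgeR adjusted p = 0.643). None of the 5 was called, against 104 of 6779 genes (1.53%), of which 5 were higher and 99 lower in lung CCR6+CD69+ cells. DESeq2 called 488 genes there, and 867 had an unadjusted edgeR p under 0.05. Against SCAP cKO lung CCR6-CD69- cells, the SCAP cKO lung CCR6+CD69+ cells differed by 1.27 ± 0.91 for Cd40, 0.75 ± 0.69 for Traf1, 0.32 ± 0.60 for Nfkbie, 1.00 ± 1.01 for Bcl2a1b and -0.15 ± 1.37 for Ccl22. The edgeR adjusted p-values ran from 0.620 to 0.992, and none of the 5 was called, against 31 of 6779 genes (0.457%); 798 genes had an unadjusted p under 0.05 and DESeq2 called 342.

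In WT cells the same lung CCR6+CD69+ over circulating difference was 1.05 ± 0.90 for Cd40, 2.58 ± 0.72 for Traf1, 0.83 ± 0.61 for Nfkbie, 5.02 ± 1.17 for Bcl2a1b and 3.89 ± 1.55 for Ccl22, given as a description. All 4 WT lung CCR6+CD69+ libraries exceeded all 4 WT circulating ones for Traf1, Nfkbie and Bcl2a1b, the last selected on these levels. Of all 6779 genes, 568 (8.38%) had that pattern. Setting the 5 genes beside that share is no test, since they were chosen with earlier results of these data known. Over WT lung CCR6-CD69- cells, the WT lung CCR6+CD69+ cells differed by 0.36 ± 0.90 for Cd40, 0.72 ± 0.68 for Traf1, 0.08 ± 0.60 for Nfkbie, 0.79 ± 0.99 for Bcl2a1b and 0.32 ± 1.38 for Ccl22. The WT circulating libraries enter both the circulating genotype comparison and this one, so the 2 sets of values share those libraries.

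**Figure D3:**
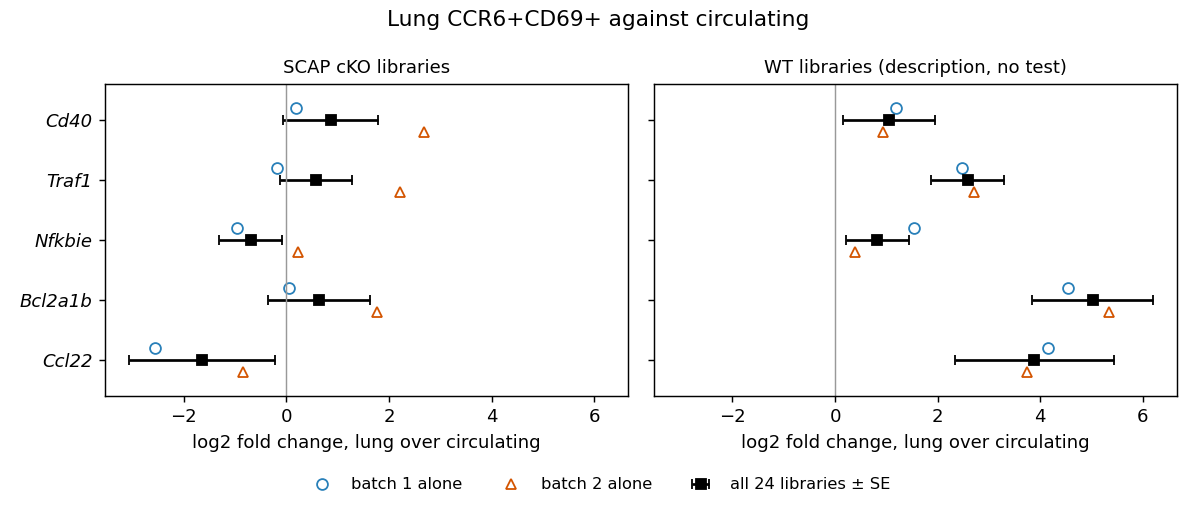
Log2 fold change of lung CCR6+CD69+ over circulating cells for the 5 genes within SCAP cKO (left) and within WT (right), with squares ± SE for all 24 libraries and open circles and triangles for each batch alone. In WT the values run from 0.83 (Nfkbie) to 5.02 (Bcl2a1b), and in SCAP cKO from -1.65 (Ccl22) to 0.86 (Cd40).

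The rest of the pathway was read from lists of 70 further genes, of which 45 had a row and 43 were tested. None passed an edgeR adjusted p of 0.05 for genotype in any population, in either direction, which does not show that they were unchanged. In circulating cells 28 of the 43 had a positive fold change, beside 3755 of all 6779 genes (55.4%), and 6 an unadjusted p under 0.05, beside 693 of all genes (10.2%). Their median was 0.26, beside 0.16 for all genes. In lung CCR6+CD69+ cells 24 were positive, beside 3557 of all genes (52.5%), with a median of 0.05, beside 0.04 for all genes. In lung CCR6-CD69- cells 21 were positive, beside 2535 of all genes (37.4%), with a median of -0.04, beside -0.31 for all genes. By role in circulating cells, 4 of 8 receptors, 8 of 14 adaptors and kinases, 3 of 3 NF-kB subunits, 5 of 5 inhibitors, 5 of 7 survival targets and 3 of 6 surface and secreted targets had a positive fold change. Their medians were 0.25 for receptors, 0.05 for adaptors, 0.43 for subunits, 0.49 for inhibitors, 0.45 for survival targets and -0.24 for surface and secreted targets.

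Among the NF-kB subunits, Rela, the p65 subunit with a transactivation domain, differed by 1.74 ± 0.72 between SCAP cKO and WT circulating cells (edgeR adjusted p = 0.426). Rel, the c-Rel subunit prominent in B cells, differed by 0.11 ± 0.42 and Nfkb1, the precursor of p50, by 0.43 ± 0.49. Cd40lg, Nfkb2, Relb and Nfkbia are not analysed here. The 6 list genes with an unadjusted p under 0.05 in circulating cells were singled out after their values were seen. They were the receptor genes Tnfrsf13b (2.08 ± 0.69), which encodes TACI, and Tnfrsf13c (1.53 ± 0.69), which encodes the BAFF receptor, Rela, the survival gene Bcl2 (2.07 ± 0.79), the stress gene Gadd45b (1.82 ± 0.75) and the cytokine gene Tnf (3.64 ± 1.53). Circulating Tnf had a median of 14.1 CPM and a maximum of 686 CPM in SCAP cKO, against 5.16 and 35.7 CPM in WT libraries. The lowest WT circulating value of Bcl2 and of Rela was 2.80 CPM, in the small replicate 2, where 3 counts were 8.41 CPM. The 4 list genes with the smallest p for genotype in lung CCR6+CD69+ cells were Cd27, Tnfrsf9 (-1.55 ± 1.46), Tnfrsf1a (1.15 ± 1.23) and Tnfrsf4 (1.58 ± 1.78), all of them TNF receptor family members. Cd27 had 0 counts in all 4 SCAP cKO libraries of that population, against 4, 1, 0 and 20 counts in WT ones, so its fitted value depends on the prior count.

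**Figure D4:**
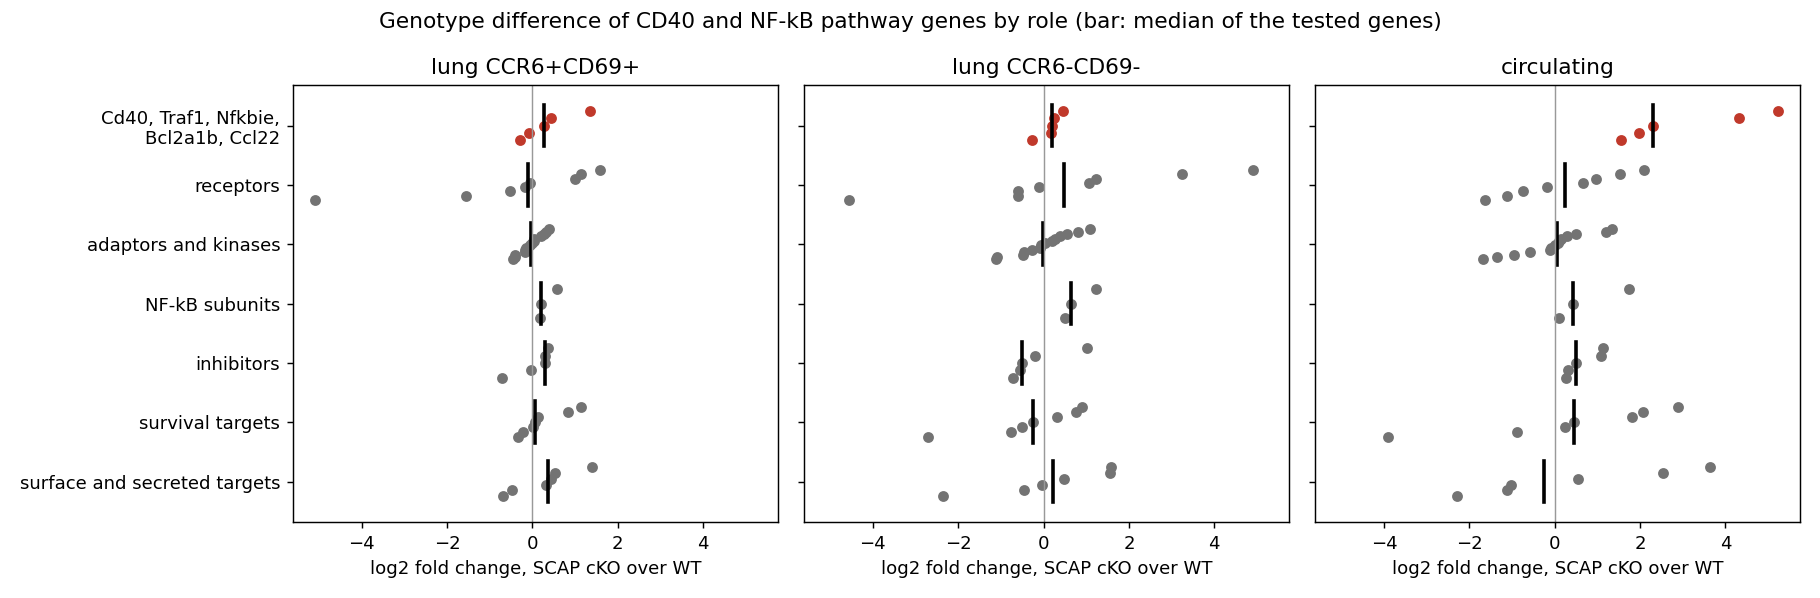
Log2 fold change of SCAP cKO over WT in each population for Cd40, Traf1, Nfkbie, Bcl2a1b and Ccl22 (top row) and for the other tested pathway genes by role; each dot is a gene and each bar the median of its row. In circulating cells the top row has a median of 2.29 and the other rows medians between -0.24 and 0.49. The genes of the top row were chosen with earlier results of these data known, so this contrast is no test.

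Between populations of SCAP cKO cells, 3 of the 43 list genes were called lower in lung CCR6+CD69+ than in circulating cells and none higher. Ccl4, a chemokine of activated lymphocytes and NK cells, was 23.3, 20.6, 0 and 6.75 CPM in lung CCR6+CD69+, against 1287, 736, 585 and 383 CPM in circulating SCAP cKO libraries, a fold change of -6.45 ± 0.77 (edgeR adjusted p = 5.57e-08). Ccl4 was also lower than in SCAP cKO lung CCR6-CD69- cells (335, 481, 74.5 and 209 CPM), by -4.76 ± 0.72 (edgeR adjusted p = 3.22e-05), the only list gene called in that comparison. Cd27, a co-stimulatory receptor of memory lymphocytes, had 0 counts in all 4 lung CCR6+CD69+ libraries, against 20, 0, 253 and 249 counts in circulating SCAP cKO ones (edgeR adjusted p = 0.0195). Tnfrsf9, which encodes the receptor 4-1BB, was 0.657, 1.20, 0 and 0 CPM in lung CCR6+CD69+ and 2.74, 1.04, 73.7 and 336 CPM in circulating SCAP cKO libraries, a fold change of -6.52 ± 1.82 (edgeR adjusted p = 0.0428). The Cd27 call was lost in 5 of 8 fits that left out 1 of the compared libraries, with the adjusted p at 0.119 without SCAP cKO lung CCR6+CD69+ replicate 4. The Tnfrsf9 call was also lost in 5 of 8, with 0.186 without SCAP cKO circulating replicate 4, where the fold change was -4.77. NK cell markers, given above, were at most 15.1 CPM in SCAP cKO lung CCR6+CD69+ libraries, against 1371 to 2309 CPM in circulating SCAP cKO ones. T cell markers summed there to 0 to 128 CPM, against 156 to 1451 CPM. Their part in these calls was not tested. WT means ran in the same direction, described without a test. Ccl4 averaged 728 CPM across WT circulating libraries, 133 CPM across WT lung CCR6-CD69- ones and 13.8 CPM across WT lung CCR6+CD69+ ones. For Cd27 the WT circulating mean was 35.8 CPM and the WT lung CCR6+CD69+ mean 1.97 CPM. For Tnfrsf9 these were 226 and 2.34 CPM, with overlap (lowest circulating 2.80 CPM, highest lung 3.78 CPM). The lower lung means were thus not limited to SCAP cKO.

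The genes whose log2 CPM ran most like each of the 5 over the 24 libraries were found among 5877 genes with a mean of at least 10 CPM, after centring within batch. For Cd40 they were Nt5e (Pearson r = 0.913), Grap (0.906) and Gmps (0.905). For Traf1 they were Clic4 (0.918), Wdfy4 (0.913) and Rpl27a (0.905), and for Nfkbie 2510039O18Rik (0.873), Fbxw5 (0.866) and Zswim8 (0.864). For Bcl2a1b they were Nrp2 (0.862), Pebp1 (0.857) and Ccdc50 (0.855), and for Ccl22 Isyna1 (0.845), Fhod1 (0.815) and Urm1 (0.799). The points share library depth and groups. Over the 22 libraries of more than 500000 counts the correlations of Nt5e and Grap with Cd40 were 0.866 and 0.892, whereas those of Clic4 with Traf1, Fbxw5 with Nfkbie and Ccdc50 with Bcl2a1b were 0.741, 0.677 and 0.667. Among the 5 genes themselves, Traf1 and Nfkbie had the highest correlation over 24 libraries, 0.811, but 0.520 over 22, where Traf1 and Bcl2a1b had the highest, 0.694. Cd40 and Ccl22 had the lowest over both, at 0.225 over 24 and -0.02 over 22.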

How the data were processed

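The values are raw counts of each gene symbol as the authors deposited them, in 1 column per library. FastQC, STAR and Salmon, with build mm39, are named in the submitters' processing notes; their versions and roles are not given in the sources used here, nor is strand. RNA from a Zymo microprep kit was made into polyA libraries with an xGen kit for low input, per the labels' protocols. CPM is a count divided by the total of its library. Genes were kept with filterByExpr by group and tested with edgeR 4.0.16 (limma 3.58.1, R 4.3.3): TMM scaling, a robust quasi-likelihood F-test and 1 fit of all 24 libraries on group and batch. Benjamini-Hochberg adjustment ran over 6779 genes, with calls at 0.05. The common dispersion was 1.20. With counts simulated for the circulating genotype comparison over 6779 genes, the test called 27% of 100 genes changed 4-fold and 83% of 100 changed 16-fold, and 6 of its 116 calls were unchanged genes. The changed genes were drawn from those with the highest mean counts, and every group had the same starting level. These shares may therefore not hold for genes with few counts in a group, such as Bcl2a1b and Ccl22 in WT circulating cells.

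DESeq2 1.42.0 and 9 other named alternatives were run, and each library was left out in turn. Log2 CPM had a prior count of 2. Sequences were read with Python 3.11.15, and the copies were compared by Biopython 1.88 on GENCODE transcripts of GRCm38, another build than that of the counts, so no other coordinates are given. The text names the 5 genes, list genes past the threshold, the copies of Bcl2a1b, the NF-kB subunits, CD40 ligand and Nfkbia, 4 list genes by smallest p for genotype in lung CCR6+CD69+ cells, and the 3 genes most like each of the 5. The 5 genes and the lists were chosen with earlier results of these data known.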

Additional observations from a re-analysis of the deposited data

Results flagged for a closer look

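Among 30 combinations of a gene of the 5 and a group of 4 libraries, 2 held a library far from the other 3. Chance gives about 1 in 20 for normally distributed values, and this share is near that. The CPM were not transformed, so the true rate may differ. Cd40 in SCAP cKO circulating replicate 2 was at 661 CPM, while the other 3 libraries lay between 0 and 69.3 CPM. Nfkbie in WT lung CCR6-CD69- replicate 1 was at 381 CPM, while the other 3 lay between 231 and 242 CPM. The gap to the nearest library was above the 95% critical value of Dixon's test for 4 samples in both.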

How the results depend on the processing

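The 9 alternatives to the test gave 270 fold changes of the 5 genes in the tested comparisons, of which 244 kept their direction and their side of the threshold, and the cause of the others was not tested. The counts include Bcl2a1b, for which the threshold is no test where its WT levels enter. Under DESeq2 the circulating differences of Traf1 (2.10), Nfkbie (1.80) and Ccl22 (5.25) passed the threshold. That of Bcl2a1b was 4.23, a description, since the gene was selected on its WT circulating level. DESeq2 called 5 genes for genotype in lung CCR6+CD69+ cells, 72 in lung CCR6-CD69- cells and 226 in circulating cells, 30 for the interaction, and in SCAP cKO lung CCR6+CD69+ cells 488 against circulating and 342 against lung CCR6-CD69- cells. With edgeR, that last comparison had 55 calls with relative log expression factors, 84 without a filter, 13 without the batch term and 8 in either batch alone, where fewer samples enter. Without a filter 11 genes were called for genotype in lung CCR6-CD69- cells. Batch 1 alone gave 1 call for genotype in lung CCR6+CD69+ cells, 2 in circulating cells, 1 for the interaction and 52 between SCAP cKO lung CCR6+CD69+ and circulating cells, for which batch 2 alone gave 15 and the libraries above 500000 counts gave 213.

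In the tested comparisons signs turned as follows. The interaction of Cd40 became 0.0056 with relative log expression factors, 0.010 with DESeq2, 0.036 without a filter, 1.74 in batch 2 alone and 0.031 without the 2 small libraries. Replicate numbers gave no clear pairing of the libraries: 0 of 60 same-numbered pairs correlated above 0.1 (-0.23 to 0.07). In 5 of the 60 pairs a library correlated best with its own number. Between WT lung CCR6+CD69+ and WT lung CCR6-CD69- libraries the same-numbered correlations were all positive, 0.048 to 0.073. With the number as a replicate block the Cd40 interaction was 0.30, and the block ended the Tnfrsf9 call (edgeR adjusted p = 0.101) and no other call of a gene named here. For genotype in lung CCR6+CD69+ cells, Bcl2a1b became 0.063 without the batch term, 0.24 in batch 1 alone and 0.093 without the small libraries, and Ccl22 0.40 in batch 2 alone. For genotype in lung CCR6-CD69- cells, Bcl2a1b became 0.23 in batch 1 alone and 0.36 without the small libraries, Ccl22 -0.47 in batch 1 alone and -0.48 without the 2 libraries led by Chil3, and in batch 2 alone Cd40 became -0.51 and Traf1 -0.29. Cd40 in circulating cells became -0.21 in batch 2 alone. In SCAP cKO lung CCR6+CD69+ against circulating cells, Traf1 became -0.19 in batch 1 alone and Nfkbie 0.22 in batch 2 alone. Against lung CCR6-CD69- cells, Ccl22 became 0.35 in batch 2 alone and 0.34 without the libraries led by Chil3, and Nfkbie -0.15 without the small libraries.

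Leaving out 1 library at a time gave these ranges in the tested comparisons where a sign or a count changed. For genotype in lung CCR6+CD69+ cells they were -0.064 to 0.46 for Traf1, -0.44 to 0.21 for Bcl2a1b and -0.93 to 0.26 for Ccl22. In lung CCR6-CD69- cells they were -0.18 to 0.61 for Traf1, -0.42 to 0.52 for Nfkbie, -1.08 to 0.039 for Bcl2a1b and -0.56 to 0.88 for Ccl22, with 0 to 2 genes called, 1 or more without SCAP cKO replicates 1 and 2. In circulating cells they were -0.25 to 2.04 for Cd40, the lowest without SCAP cKO replicate 2, with 0 to 1 genes called, 1 without WT replicate 1, and for the Cd40 interaction -0.72 to 1.58. SCAP cKO lung CCR6+CD69+ cells had 64 to 117 genes called against circulating cells, 67 or fewer without their own replicate 1, 2 or 3. They had 12 to 38 against lung CCR6-CD69- cells, 15 or fewer without any of their own 4 replicates; Ccl22 there ran from -0.80 to 0.76. In batch 1 alone the Ccl4 calls held, while the Cd27 call did not, and Tnfrsf9 gave no value. The circulating SCAP cKO counts of Tnfrsf9 lay mostly in replicates 3 and 4, both of batch 2. In batch 2 alone the calls of Ccl4, Cd27 and Tnfrsf9 did not pass. The Ccl4 call against lung CCR6-CD69- cells was lost without the batch term (edgeR adjusted p = 0.177). In the described WT lung CCR6+CD69+ over WT lung CCR6-CD69- values, Ccl22 became -0.12 in batch 1 alone, Cd40 -0.099 in batch 2 alone and Nfkbie -0.070 without the libraries led by Chil3. With 1 library left out these ran from -0.069 to 0.34 for Nfkbie and from -0.37 to 1.03 for Ccl22. Cd40 there was 1.21 in batch 1 alone, and over WT circulating cells batch 1 gave 1.54 for Nfkbie and batch 2 gave 0.39. Group mean CPM stayed within 1 SD with TMM scaling.

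Depth limits the lowest values: 3 counts were 23.3 CPM in SCAP cKO lung CCR6-CD69- replicate 4 and 8.41 CPM in WT circulating replicate 2, so low levels of Bcl2a1b and Ccl22 could not be detected there.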
